A study of Mus musculus with 8 samples.

Results

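The comparison described here is between 1 RNA sequencing library of cells given ginseng berry concentrate (GBC) and 1 library of cells given DMSO, a solvent used as the control. Its members were all genes whose mean over the 2 libraries, once brought to a common scale, was at least 5 TPM, a transcript level already divided by gene length. This left 6593 of 52139 genes listed for the pair, out of 52338 listed in the whole series, and 38 of the 6593 were small RNA genes by symbol (Snora, Snord or Mir). The labels give both libraries as wild type C2C12, an established line of mouse muscle precursor cells that form myotubes. The series also holds 3 DMSO and 3 ginsenoside Re libraries, labelled as the same line, in a separate table. No dose, treatment time, culture stage or composition of the concentrate was given in the labels. With 1 library a group the differences have no replicate check, so no test was made and every difference is a description of these libraries.

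Ginseng berries are the fruit of Panax ginseng and are rich in ginsenosides, steroid-like saponins of which Re is a major one. Growing cells spend much of their mRNA on the machinery of protein synthesis, on the respiratory chain and, during DNA replication, on histones. Cells of connective tissue add collagens, laminins and other matrix proteins. Genes of protein synthesis, of the respiratory chain and of histones are among the most abundant in such libraries.

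The cell type label was checked against its markers before the comparison was made. Of 35 myoblast and myotube genes, 0 reached a mean of 5 TPM in the pair, and 14 were listed at 0 in both libraries. The highest was Des, the muscle intermediate filament desmin, at 2.26 TPM with DMSO and 1.35 TPM with GBC. Myod1 and Myog, the transcription factors that set and execute the muscle programme, were listed at 0 in both. The summed level of the 35 genes, as deposited, was 5.93 TPM with DMSO and 5.26 TPM with GBC, against 308 to 354 TPM in the 6 libraries of the other table, where 11 of the 35 reached 5 TPM. Fibroblast and mesenchymal genes were well measured in the pair, with 15 of 23 at 5 TPM or more, and so they were in the other table, with 14 of 23 and deposited sums of 5886 to 7579 TPM against 3852 TPM with DMSO and 4004.5 TPM with GBC. Thy1, a surface glycoprotein of fibroblasts, was at 27.9 and 18.8 TPM with DMSO and GBC, and Cd34, a sialomucin of progenitor cells, at 60.6 and 42.1 TPM, while Fap, Fbln1 and Tcf21 were listed at 0 in both. Members of this list differed between the 2 tables. As deposited, Thy1 was at 0 to 0.08 TPM in the other table, against 23.75 TPM with DMSO and 22.11 TPM with GBC. Cd34 was at 2.45 to 3.8 TPM there, against 51.5 and 49.5 TPM. Col3a1 went the other way, at 178 to 271 TPM there against 19.8 and 39.3 TPM. S100a4 alone gave 2229 and 2002 TPM of the pair's sums. Markers of macrophages, endothelium, epithelium and neurons had 0 members at 5 TPM. Those of bone and cartilage had 3 (Spp1, Sox9 and Col10a1), of fat 1 (Adipor2) and of hepatocytes 1 (Serpina1a). The 2 libraries therefore went against the myoblast label at these genes, and they did so together. In bulk RNA, fewer cells of a type and less RNA per cell cannot be told apart. Whether the cells of the pair are the line that the label gives was not tested. Below they are called the DMSO library and the GBC library, and no cell type is read into them.

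Most genes differed little between the 2 libraries. Differences are given as log2(TPM + 1) in GBC minus DMSO. Over the 6593 genes the median was -0.13, the quartiles were -0.31 and 0.10, and 86.4% of genes lay within 0.5 of 0. A difference of at least 1 either way, about a 2-fold difference, was used as a rule of size. It was met by 113 genes (1.71%), of which 80 (1.21%) were higher in GBC and 33 (0.501%) lower. Without the small RNA genes it was met by 105 of 6555 (1.6%), 73 (1.11%) higher and 32 (0.488%) lower. Higher genes were 70.8% of those past the rule. That share depended on the scale: it was 95.4% on the values as deposited, where the median of all genes was 0.44 higher, 87.6% with the listed TPM set to equal sums, 89.7% when mitochondrially encoded genes were left out of such sums, and 85.6% when only genes of at least 5 TPM in both libraries set the scale. Those last 3 scales put the median 0.20, 0.24 and 0.16 higher. The same rule applied to pairs of libraries of 1 group in the other table, the nearest thing to replicates in the series, was met by 0.978% to 1.46% of genes. For protein-coding genes the share was 1.13% in the GBC pair (of 6193 genes 60, or 0.969%, higher and 10, or 0.161%, lower) and 0.204% to 0.657% in those 6 pairs. Those 6 pairs came from other libraries, with other markers, and no GBC replicate was among them.

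**Figure D1:**
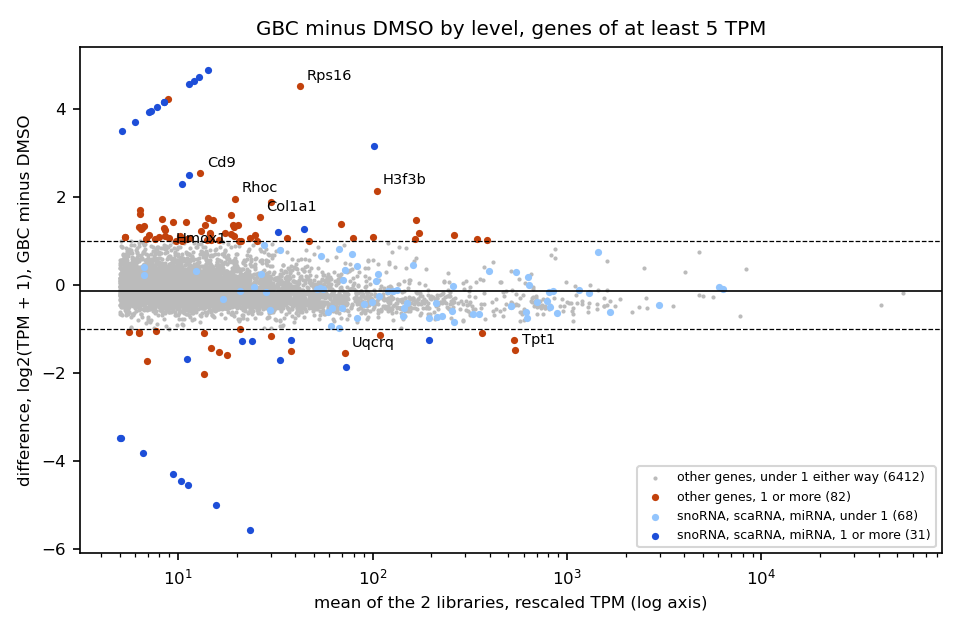
Difference between the GBC and DMSO libraries (log2 of TPM + 1) against the mean level of each of the 6593 genes (log axis), 1 point a gene. Dashed lines mark differences of 1 and -1, the solid line the median of -0.13, and blue points at the far top and bottom left are snoRNA, scaRNA and miRNA genes.

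Named protein-coding and long non-coding genes, with predicted models, pseudogenes, small RNAs and mitochondrially encoded genes set aside, numbered 6149. Of these 66 were past the rule, 56 higher and 10 lower in GBC. For 63 of the 66 the difference was larger than the largest difference within any of the 6 same-group pairs of the other table, as it was for 42.2% of all 6149. The other 3 were Lrrc42, Snhg9 and Snrpd3. The 66 had been picked for a difference of at least 1, which few genes reach in those pairs, so the count of 63 is a description only. At the edges of the rule Aebp1 was just inside at 1.01 (30.9 TPM with DMSO and 63.0 TPM with GBC) and Gstp2 just outside at 0.9999 (3.91 and 8.81 TPM). On the lower side Snhg9 was just inside at -1.003 and Osgep just outside at -0.99. Nherf1, at a mean of 5.005 TPM, was the last gene above the minimum level, and Tex2 fell just under it.

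The largest difference in a named protein-coding gene was in the small ribosomal subunit. Rps16, a protein of that subunit, was at 2.61 TPM with DMSO and 82.5 TPM with GBC, a difference of 4.53. The low value was the DMSO one. With all 8 libraries on 1 scale, Rps16 stood at 4.73 TPM with DMSO, 154 TPM with GBC and 728 to 858 TPM in the other 6. Ribosomal protein genes have many processed pseudogenes, and how the reads of such copies were divided is not given in the sources used here, so the level of Rps16 is uncertain. Rpl11, a protein of the large subunit, was at 105 and 241 TPM with DMSO and GBC (1.19).

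Genes of chromatin and of mRNA processing were measured too, with 1 of 13 variant histone genes and 1 of 30 splicing and export genes past the rule, against 1.71% of all genes. The splicing and export list had a median 0.22 above that of all genes, with 23 of 30 above it. Against genes of like length it was also 0.22 above, and the unadjusted same-group values were -0.06 to 0.08. The variant histone list lay 0.07 below all genes. H3f3b, which encodes the replacement histone H3.3, was at 38.1 TPM with DMSO and 171.7 TPM with GBC (2.14), while H3f3a, which encodes the same protein, was at 168 and 139 TPM (-0.27). The 2 genes of 1 protein thus differed in opposite directions, and the GBC library held them at similar levels. Hnrnpa1, an RNA-binding protein of splicing and export, was at 37.9 and 100.1 TPM (1.38), with the same uncertainty about pseudogene copies as for Rps16. Ncbp2, the small subunit of the nuclear cap-binding complex, was at 4.60 and 14.2 TPM (1.44). Thoc5 of the mRNA export complex TREX (1.31), Nup107 of the nuclear pore (1.25), Tpr of the pore's basket (1.07) and the splicing proteins Srrm2 (1.06) and Snrpd3 (1.04) were also past the rule. These 5 stand outside those lists and were chosen after their values were seen.

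Genes of ribosome assembly and translation went both ways. Rrs1, an assembly factor of the large ribosomal subunit, was at 2.47 TPM with DMSO and 10.3 TPM with GBC (1.71). Ddx21, an RNA helicase of the nucleolus, was at 7.31 and 20.4 TPM (1.36), and Nolc1, a nucleolar phosphoprotein, at 16.5 and 34.3 TPM (1.01). Ddx3x, an RNA helicase that acts in translation initiation, was at 8.80 and 28.4 TPM (1.59). The ribosome biogenesis list had 3 of 40 members past the rule upward and 2 downward, against 1.21% and 0.501% of all genes, and its median lay 0.04 above that of all genes. The translation factor list had 2 of 38 past it, Ddx3x and Eif5b (1.09), and a median 0.04 below that of all genes. Mars1, which charges tRNA with methionine, was at 10.6 and 28.1 TPM (1.32), and Yars, its tyrosine counterpart, at 8.73 and 20.6 TPM (1.15). They were 2 of 24 members of the aminoacyl-tRNA synthetase list, against 1.71% of all genes, and the median of that list was 0.05 above that of all genes.

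At the cell surface and in the secretory path, Cd9, a surface tetraspanin of cell adhesion and fusion, was at 3.09 TPM with DMSO and 23.0 TPM with GBC (2.55). It was the 1 tetraspanin of 11 past the rule, against 1.71% of all genes. Cd63, a tetraspanin of late endosomes, was at 26.9 and 46.1 TPM (0.76), and Cd81 and Cd151, its plasma membrane relatives, were at -0.42 and -0.53. Cpe, carboxypeptidase E, which trims peptide precursors in secretory granules, was at 12.2 and 48.1 TPM (1.89), whereas Pam, which amidates such peptides in the same granules, was at 25.2 and 23.1 TPM (-0.12). Ece1, which cleaves endothelin precursors, was at 3.82 and 12.8 TPM (1.51). Trappc6b, a subunit of the TRAPP vesicle-tethering complex, was at 2.64 and 10.1 TPM (1.61), and Pmm1, a phosphomannomutase, at 5.51 and 16.4 TPM (1.42). Rhoc, a small GTPase of actin control, was at 7.41 and 31.9 TPM (1.97).

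Chaperones and the proteasome each gave a few genes past the rule. Dnajc7, a co-chaperone of Hsp70 and Hsp90, was at 6.88 TPM with DMSO and 21.8 TPM with GBC (1.53). Hsp90ab1, the constitutive cytosolic Hsp90, was at 224 and 464 TPM (1.05). Dnaja1, an Hsp40 (1.01), and Cryab, a small heat shock protein (1.01), were past the rule as well. These were 4 of 23 heat shock genes, against 1.21% of all genes higher, and the list's median lay 0.01 above that of all genes. Psmc5, an ATPase of the proteasome's base, was at 10.3 and 27.8 TPM (1.36), and Psmd12, a subunit of its lid, at 8.95 and 19.2 TPM (1.02). They were 2 of 36 proteasome genes, against 1.21% of all genes higher. The median of the list was 0.15 below that of all genes, against -0.07 to 0.04 in the same-group pairs. Measured against genes of like length it was 0.10 below.

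Among the 30 NRF2 target genes at 5 TPM, which serve redox defence and detoxification, 1 was past the rule (1.71% of all genes were). Hmox1, haem oxygenase, which degrades haem and is 1 of the targets of the stress factor NRF2, was at 10.9 TPM with DMSO and 29.8 TPM with GBC (1.37). Nqo1, the quinone reductase often used to read NRF2 activity, was at 126 and 113 TPM (-0.15), and Sod1, cytosolic superoxide dismutase, at 86.1 and 51.1 TPM (-0.74). The median of the list was 0.04 below that of all genes. Txn2, the thioredoxin of mitochondria, was at 7.50 and 22.6 TPM (1.47), and Akr1b1, aldose reductase, at 15.2 and 34.4 TPM (1.13). Both stand outside the NRF2 list. Txn2 is 1 of the 20 highest named genes, and Akr1b1 was chosen after its value was seen.

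The 12 lowest named genes lay between -1.55 and -0.99. Uqcrq, a small subunit of the respiratory chain (complex III), was at 108.5 TPM with DMSO and 36.4 TPM with GBC (-1.55). Tpt1, the translationally controlled tumour protein, was at 799 and 285 TPM (-1.49), and its processed pseudogene Tpt1-ps3 was at 24.5 and 7.87 TPM (-1.52). Reads of Tpt1 and of this copy may be shared, so the 2 values are not independent. Get4, which helps insert tail-anchored membrane proteins, was at 41.8 and 18.2 TPM (-1.16), and Emp1, a tetraspan membrane protein, at 149.8 and 67.4 TPM (-1.14). Ddx51 (-1.10), a helicase of rRNA processing, and Rpp40 (-1.07), a protein subunit of RNase P and RNase MRP, were the ribosome biogenesis genes past the rule downward. The RNA subunits of those 2 enzymes, Rpph1 and Rmrp, differed by -0.69 and -0.46, short of the rule. Cldnd1, a claudin-domain protein (-1.10), and Lrrc42, a leucine-rich repeat protein (-1.04), followed. Osgep (-0.99), which acts in a universal tRNA modification, and the histone gene H4c3 (-0.99) were the 2 named that did not reach the rule.

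**Figure D2:**
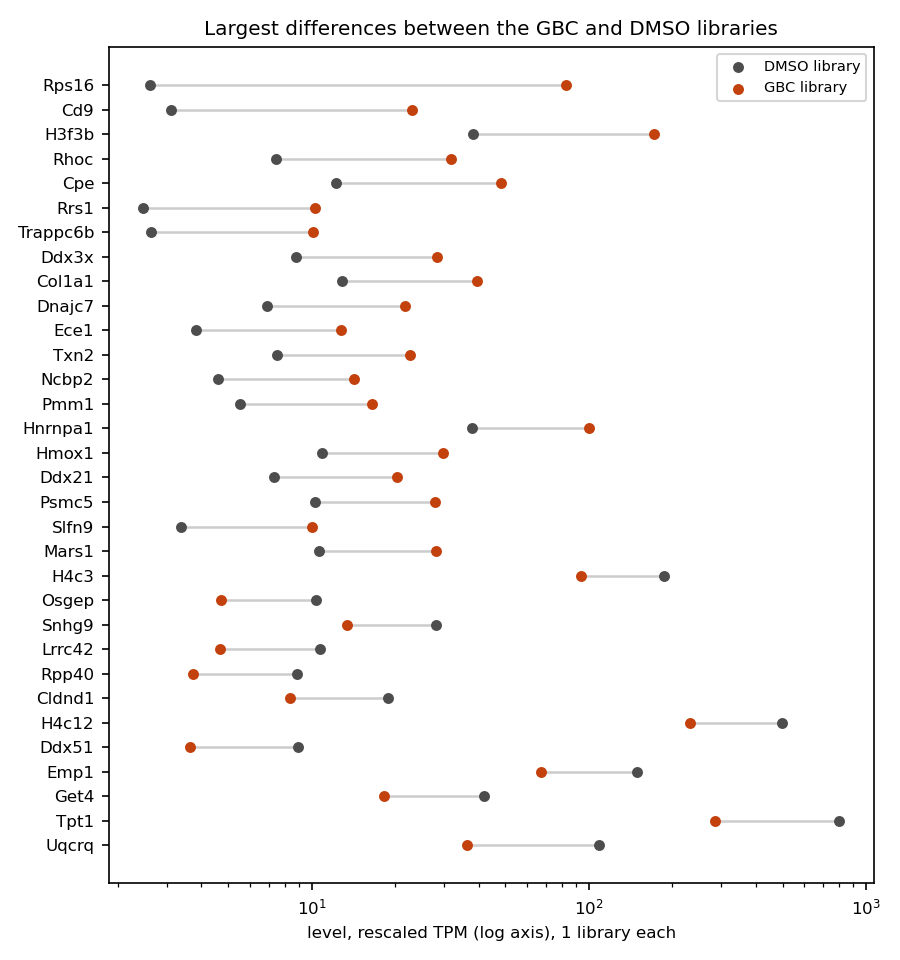
Levels of the 20 named genes with the highest and the 12 with the lowest differences, in rescaled TPM on a log axis, with 1 grey point for the DMSO library, 1 orange point for the GBC library and a line joining them. Rps16 spans from 2.61 to 82.5 TPM, while the lower genes span about a factor that meets the rule, from 108.5 to 36.4 TPM for Uqcrq at the bottom.

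Levels in the other table were set beside those of the pair. On a scale common to all 8 libraries, the DMSO library was below all 6 of the others at 54 of the 56 higher genes, and above all 6 at the remaining 2, Col1a1 and Slfn9. Over all 6149 named genes the DMSO library was below all 6 at 35.7%. Genes picked as higher in GBC are by that choice low in the DMSO library, and the count of 54 is a description only. The GBC library was below all 6 at 41 of the 56, inside their range at 5 and above it at 10. Over all 6149 it was below at 36.6% and above at 43.0%. Cd9 stood at 5.60 TPM with DMSO, 42.9 TPM with GBC and 106 to 113.5 TPM in the others. Hmox1 stood at 19.7, 55.7 and 46.1 to 53.2 TPM, and Cpe at 22.1, 89.9 and 78.7 to 83.3 TPM, so that GBC was above the others for both. Slfn9, a Schlafen family gene, stood at 6.09, 18.7 and 2.59 to 3.10 TPM. Of the 10 lower genes the DMSO library was above all 6 at 9 and inside their range at 1, against 47.0% above over all 6149. Genes picked as lower in GBC are by that choice high in the DMSO library, so the count of 9 is a description only too. At these 10 genes the GBC library was below all 6 at 3, inside their range at 3 and above it at 4. Tpt1, for example, stood at 1446 TPM with DMSO, 532 TPM with GBC and 968 to 1261 TPM in the others. The 2 tables held cells with different marker genes, and their part in these values was not tested.

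**Figure D3:**
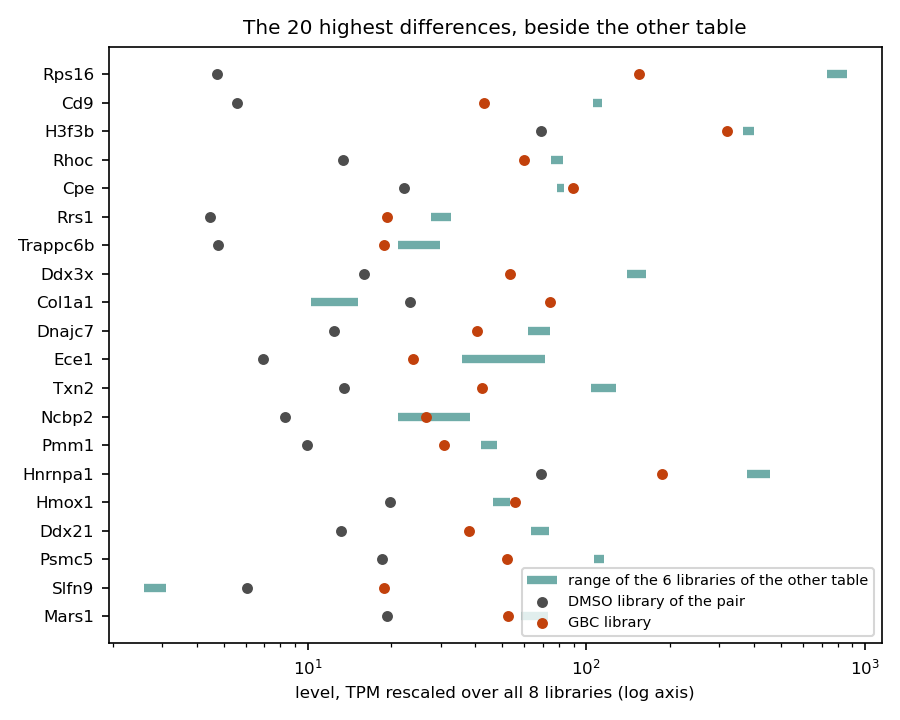
Levels of the 20 named genes with the highest differences on a scale common to all 8 libraries (TPM, log axis): the DMSO library in grey, the GBC library in orange, and the range of the 6 other libraries as a green bar. The grey points lie left of the bars except for Col1a1 and Slfn9, and most orange points lie between the grey point and the bar.

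Gene lists were described by their median difference relative to the median of all 6593 genes, since a common scale factor moves both nearly alike. Their counts of members past the rule, here and below, stand beside 1.71% of all genes, 1.21% higher and 0.501% lower. Genes of the extracellular matrix and of adhesion lay above the median of all genes. The 8 basement membrane genes had a median 0.65 above that of all genes, and all 8 were above it, while the same list lay between -0.08 and 0.19 in the same-group pairs of the other table. Lamb1 and Lamc1, chains of laminin, were at 14.1 and 27.1 TPM (0.90) and at 11.3 and 18.8 TPM (0.69) in DMSO and GBC. Nid1, which links laminin to collagen IV, was at 11.1 and 19.9 TPM (0.79), and Hspg2, the proteoglycan perlecan, at 4.08 and 7.46 TPM (0.74). None of the 8 reached the rule of size. Collagens had a median 0.43 above that of all genes, with 13 of 14 above it and 1 past the rule, Col1a1, the alpha 1 chain of type I collagen, at 12.9 and 39.6 TPM (1.55). Col1a2, the other chain of that trimer, was at 132 and 194.5 TPM (0.56). The 2 chains were thus far apart in level in both libraries. Integrins and focal adhesion genes lay 0.45 above all genes, with 19 of 21 above it, Parva (0.86) and Flnc (0.69), which bind integrin complexes and actin, leading. Matricellular glycoproteins lay 0.33 above, with Thbs2 (0.81), Fn1 (0.75) and Thbs1 (0.73), 2 thrombospondins and fibronectin, higher, and Spp1, osteopontin, lower at 320 and 189 TPM (-0.76).

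By list median, mitochondrially encoded genes and nuclear genes of the respiratory complexes differed in opposite directions. Of the mitochondrially encoded genes 11 were higher in GBC and 4 lower, and their summed level was 79525 TPM with DMSO and 78186 TPM with GBC. The most abundant, mt-Rnr2 at a mean of 53337 TPM, is a ribosomal RNA and no part of those complexes. The 15 mitochondrially encoded genes had the highest median among the lists with 5 or more members, 0.88 above that of all genes. Of the 15, 4 were past the rule upward and 1 downward, against 1.21% and 0.501% of all genes. These counts moved with the scale, to 9 and 0 on the values as deposited. In the same-group pairs of the other table the list lay between -0.09 and 0.58. The complex I subunits mt-Nd4, mt-Nd6 and mt-Nd2 were at 164 and 360 TPM (1.13), 63.3 and 137 TPM (1.10), and 254 and 517 TPM (1.02). Each of these was larger than its largest same-group difference of 0.84 to 0.92. For the complex IV subunits mt-Co2 (1.07) and mt-Co3 (-1.25) it was smaller, at 6.77 and 4.86 between same-group libraries. Nuclear genes of complex I lay 0.26 below all genes (6 of 37 above it), those of complexes II to IV 0.24 below (3 of 25), and those of ATP synthase, complex V, 0.28 below (2 of 18). In the same-group pairs complex I ranged from -0.13 to 0.01 and complexes II to IV from -0.23 to 0.07. The order of subtraction in those pairs is arbitrary, so only the size is read, and complexes II to IV lay about as far from all genes in 1 of them. Ndufb5, Ndufa11 and Ndufa8 of complex I were at -0.82, -0.76 and -0.74, whereas Ndufs6 of the same complex was at 13.4 and 25.7 TPM (0.90) and Sdha, the flavoprotein of complex II, at 9.60 and 16.8 TPM (0.75).

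Ribosomal proteins and replication histones also lay below the rest. Small-subunit proteins had a median 0.32 below that of all genes and large-subunit proteins 0.29 below, with 7 of 33 and 6 of 49 members above it, and Rps16 and Rpl11 the only ones past the rule. Rps10 was at 1378 TPM with DMSO and 775 TPM with GBC (-0.83), and Rpl34 at 585 and 356 TPM (-0.71). Replication histones, which package newly made DNA, lay 0.42 below, with 3 of 43 members above the median of all genes. H4c12 (-1.10) was at 497 and 232 TPM and H4c8 (-0.83) at 736 and 415 TPM, while H4c2 went the other way at 81.5 and 158 TPM (0.95). Histone genes of 1 class are near-identical copies, so the division of reads between H4 genes is uncertain. In the same-group pairs the 3 lists ranged from -0.18 to 0.03, from -0.10 to 0.03 and from -0.27 to 0.10. The 41 genes of DNA replication had 0 past the rule and lay 0.08 below all genes, and the 38 of mitosis lay 0.03 above with 1 past it, Foxm1, a transcription factor of mitotic genes, at 6.12 and 13.3 TPM (1.01).

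Lists of muscle wasting, growth signalling and metabolism were described in the same way. Of 17 atrophy and ubiquitin ligase genes, 16 insulin and IGF signalling genes and 23 genes of mTORC1 and AMPK, 0 were past the rule. At the share of 1.71% over all genes, lists of this size would hold few or none, so the counts say nothing particular to them. The medians lay -0.04, 0.20 and 0.13 from that of all genes, and -0.09, 0.03 and 0.06 from genes of like length. Fbxo32 and Trim63, the ligases atrogin-1 and MuRF1, were under the minimum, at 0.34 and 0.30 TPM for Fbxo32 and listed at 0 for Trim63. Mstn, myostatin, was listed at 0 in both libraries, and Fst, its antagonist follistatin, was at 1.02 and 0.71 TPM. Ddit4, an inhibitor of mTORC1, was at 6.38 and 10.2 TPM (0.60), and Rptor, a scaffold of mTORC1, at 4.62 and 8.51 TPM (0.76). Lamtor4 (-0.64), Lamtor1 (-0.58) and Lamtor5 (-0.55) of the same list went the other way. Of the 23 mTORC1 and AMPK genes, 10 were higher in GBC and 13 lower. Of 17 genes of glycolysis and hypoxia 1 was past the rule, Gpi1, glucose-6-phosphate isomerase, at 13.7 and 28.6 TPM (1.01). Of 29 genes for cholesterol and fatty acid synthesis 0 were past the rule. Their median lay 0.16 above all genes, with Scd2, a desaturase, at 49.2 and 93.5 TPM (0.91) and Fasn, fatty acid synthase, at 16.6 and 29.1 TPM (0.77). Targets of p53 (13 genes), of ATF4 (21) and of interferon (6) also had 0 past the rule, with Cdkn1a, the cell cycle inhibitor p21, at 26.4 and 14.6 TPM (-0.81). Cdkn1a was the lowest of the 13 p53 targets, of which 9 lay above the median of all genes. The median of the p53 list lay 0.05 above that of all genes and 0.21 above genes of like length. The common reference genes Actb and Gapdh differed by -0.11 and 0.14.

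**Figure D4:**
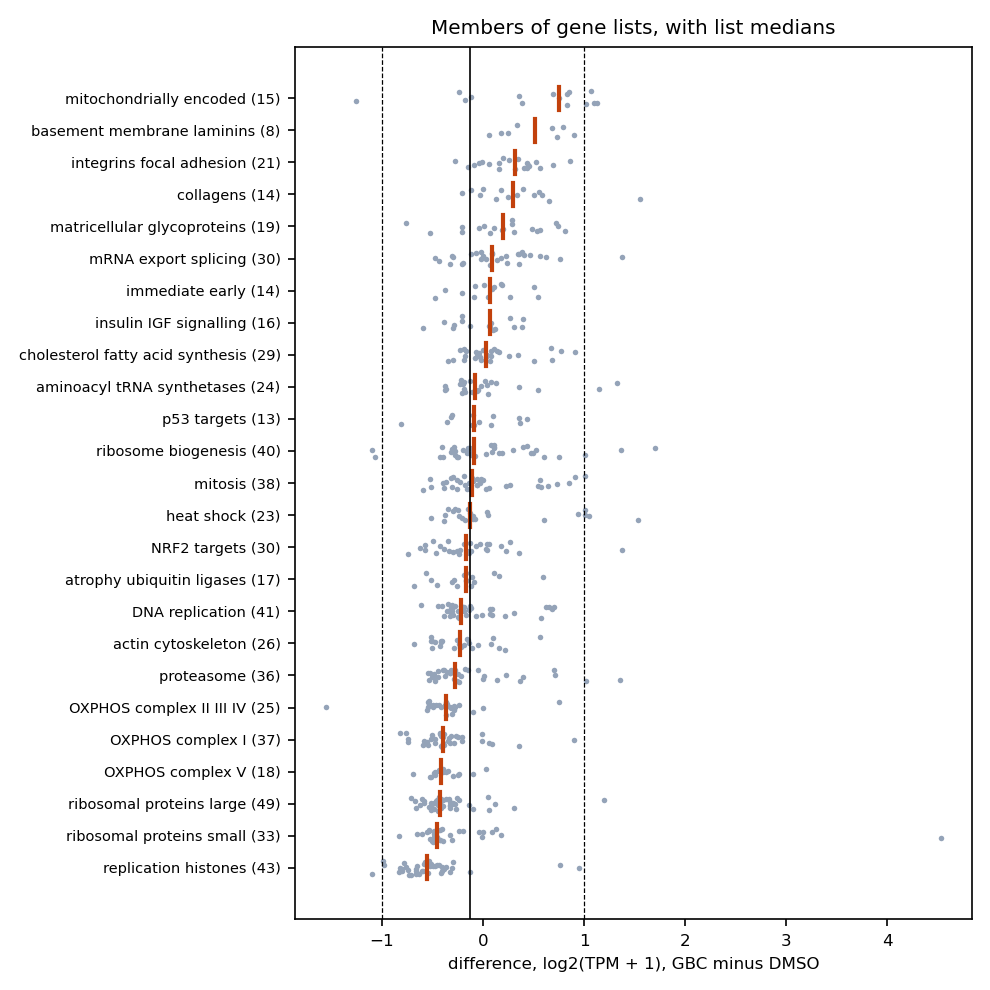
Differences between the GBC and DMSO libraries (log2 of TPM + 1) for the members of 25 gene lists, 1 point a gene at a mean of at least 5 TPM, with the number of genes in parentheses and the list median as an orange bar. The black line is the median of all genes, -0.13, and the dashed lines are the rule of size. Histones, ribosomal proteins and nuclear respiratory genes lie left of the black line, and matrix, adhesion and mitochondrially encoded genes right of it.

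These list medians went with gene length. Over 6193 protein-coding genes the median difference was -0.42 for the 189 genes with under 1 kb of exon, -0.31 for 1 to 2 kb, -0.20 for 2 to 4 kb, -0.09 for 4 to 8 kb, and 0.09 for the 1118 genes over 8 kb. In the same-group pairs of the other table the medians of all these classes lay between -0.12 and 0.09. Spearman's correlation across genes between difference and length was 0.41 in the GBC pair and -0.07 to 0.28 in those pairs. Genes are not independent replicates and share the library, so no p is given. Difference also went with level, from a median of -0.05 at 5 to 10 TPM to -0.40 over 200 TPM. The lists that lay low held short genes, with median lengths of 620 bases for the histones, 1734 and 1770 bases for the ribosomal proteins and 1569 bases for complex I, and the lists that lay high held long ones, of 8080 bases for collagens and 8191 for adhesion genes. Measured against genes of like length, the histones lay 0.23 below, small and large ribosomal proteins 0.18 and 0.11 below, and complex I 0.14 below. Same-group values were not adjusted for length. Unadjusted, their largest sizes for these lists were similar, at 0.27, 0.18, 0.10 and 0.13. Basement membrane genes lay 0.46 above, collagens 0.34, matricellular genes 0.34 and adhesion genes 0.28. The largest unadjusted same-group sizes of those lists were 0.19, 0.14, 0.15 and 0.16. Mitochondrially encoded genes, which are short (a median of 955 bases), lay 1.10 above genes of like length.

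**Figure D5:**
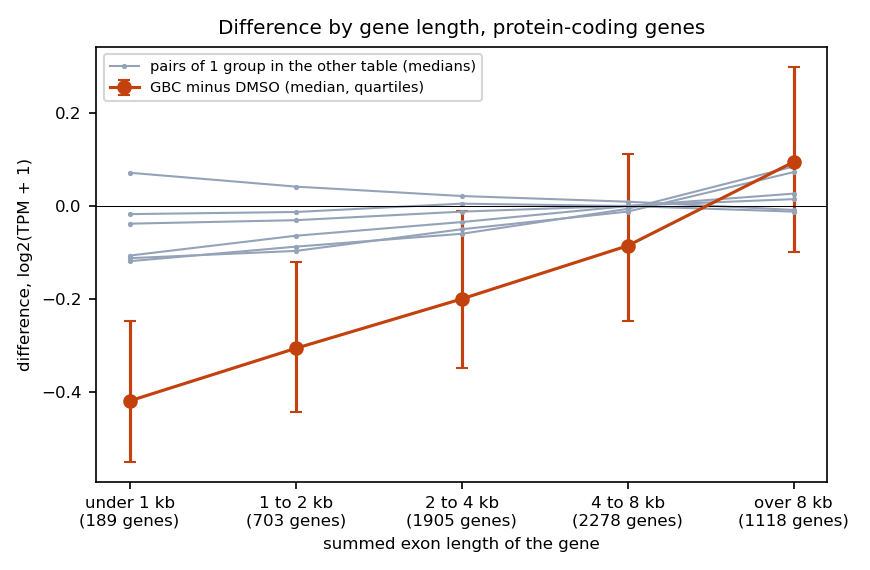
Median difference (log2 of TPM + 1) of protein-coding genes by summed exon length, in orange with quartile bars for GBC minus DMSO, and in grey the medians of the 6 same-group pairs of the other table. The orange medians go from -0.42 under 1 kb to 0.09 over 8 kb, and the grey ones stay between -0.12 and 0.09.

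Small RNAs are described apart. The H/ACA snoRNAs (Snora genes) guide the conversion of uridine to pseudouridine, mostly in ribosomal RNA. They fold into a pair of hairpins and end in an ACA box close to the 3′ end, and most are cut from introns of other genes. The sequences below are those of the 4 Snora genes with the highest positive differences, taken from the GENCODE mouse release M21 transcripts (GRCm38) with the ACA box in capitals. Of 27 Snora genes with a sequence, 22 had ACA exactly 3 bases before the end, and 25 had it 2 to 4 bases before.
Snora41, chromosome 1, 132 bases: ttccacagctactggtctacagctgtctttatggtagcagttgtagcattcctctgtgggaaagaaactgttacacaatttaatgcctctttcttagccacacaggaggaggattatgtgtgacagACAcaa
Snora65, chromosome 2, 130 bases: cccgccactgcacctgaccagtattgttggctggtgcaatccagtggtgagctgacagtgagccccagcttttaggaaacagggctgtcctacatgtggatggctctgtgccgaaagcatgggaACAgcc
Snora69, chromosome X, 131 bases: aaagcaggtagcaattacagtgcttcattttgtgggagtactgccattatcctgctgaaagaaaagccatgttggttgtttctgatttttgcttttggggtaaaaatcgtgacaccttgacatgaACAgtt
Snora28, chromosome 12, 127 bases: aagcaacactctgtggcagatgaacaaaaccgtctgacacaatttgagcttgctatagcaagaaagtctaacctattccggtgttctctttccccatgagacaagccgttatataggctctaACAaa

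Of the 38 small RNA genes by symbol, 8 were past the rule (21.1%), 7 (18.4%) higher and 1 (2.63%) lower in GBC. By symbol the set includes 2 host genes of microRNAs, Mir22hg and Mir100hg, which were under the rule. All 8 were 125 to 137 bases long. Snora41, Snora65 and Snora69 were listed at 0 in DMSO and at 28.7, 25.7 and 10.3 TPM with GBC, and they were listed at 0 in all 6 libraries of the other table as well. Snora28 was at 2.73 TPM with DMSO and 20.1 TPM with GBC, Snora16a at 2.89 and 18.2 TPM, and Snora52 at 25.3 and 63.1 TPM. The microRNA gene Mir669h was listed at 0 and 17.0 TPM, the same values as the snoRNA gene AF357399. The 2 lie in different genes, and both models are 125 bases long. A given number of reads makes a higher TPM in so short a gene, and the number of reads behind these values is not known. Of all 98 snoRNA and scaRNA genes by biotype, 30 (30.6%) were past the rule, 15 in each direction, against 45.9% to 67.6% in the same-group pairs of the other table. By symbol, 50% to 75% were past it in those pairs. Of the 30, 18 were listed at 0 in 1 of the 2 libraries. A gene at 0 in 1 library and at a mean of 5 TPM is past the rule by that alone, so these 18 calls followed from the minimum level, and nothing is read from the shares. The 6 Snord genes at 5 TPM, of the box C/D class that includes guides of ribose methylation, had 0 past the rule and differences from -0.72 to -0.09.

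Values of the genes that carry these small RNAs were set beside them. Of 31 snoRNA, scaRNA and miRNA genes past the rule, 25 lay within another gene, and for 22 of these the host was itself measured. For 21 of the 22 the host differed by less than 1. The small RNAs had been picked as past 1 and 1.71% of all genes are past it, so this count is a description only. In 13 of the 22 the host had the sign of its small RNA. Snora41 lies in an intron of Eef1b2, a translation elongation factor, which was at 441 TPM with DMSO and 462 TPM with GBC. Snora65 overlaps Rpl12, which was at 866 and 607 TPM, and Snora69 lies in an intron of Rpl39, which was at 353 and 258 TPM. Snora28 overlaps Eif5, an initiation factor, which differed by -0.18. The exception was AF357399, which lies in an intron of Rps16. In the other direction Snora78 was at 1070 and 1802 TPM (0.75), while Snhg9, the non-coding gene that carries it in an intron, was at 28.0 and 13.5 TPM (-1.003).

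Snora43 was the 1 Snora gene past the rule downward, and it has 2 gene models on chromosome 2. Whether the models overlap in position was not tested. The model of 127 bases was at 31.2 TPM with DMSO and listed at 0 in GBC. The model of 139 bases, which contains the whole sequence of the shorter one from its base 12 on, was at 57.6 and 54.1 TPM (-0.09). The longer model is shown with the shared bases in capitals. Reads of the shared bases can be assigned to either model, so the 0 of the shorter one does not show that the RNA was lower.
Snora43, longer model: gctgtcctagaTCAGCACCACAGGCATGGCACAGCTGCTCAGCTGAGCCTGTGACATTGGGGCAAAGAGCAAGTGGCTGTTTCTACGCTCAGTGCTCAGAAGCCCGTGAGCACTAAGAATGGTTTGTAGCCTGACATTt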

How the data were processed

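Column-purified total RNA went into TruSeq (Illumina) RNA libraries, per the labels' protocols. The submitters' processing notes name STAR, RSEM, GRCh38 and GRCm39. What each was used for, and its version and settings, were not given in the sources used here. In 2 tables, 1 for the GBC pair and 1 for the DMSO and Re libraries, the authors deposited log2(TPM + 1) values per gene. TPM keeps no depth, so the depth and counting error of each library are unknown.

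The log2 values were turned back into TPM. The 2 libraries were divided by median-of-ratios size factors (0.850 for DMSO, 1.18 for GBC) from the 19316 genes above 0 in both. Differences used a pseudocount of 1, genes a minimum mean of 5 TPM, and the rule of size was 1. Since each group had 1 library, no test was fitted. Same-group pairs of the other table (6 pairs, from 3 libraries each of DMSO and Re) were treated in the same way. In each the library with the lower replicate number was subtracted from the other. That order is arbitrary, so the signs of same-group values carry no meaning and only their size does. Levels across tables were scaled over all 8 libraries by 13283 genes, and these tables were deposited separately. Biotypes and exon lengths came from GENCODE mouse release M21 (GRCm38), matched for 6591 of 6593 genes. The labels do not say which libraries come from separate cultures. The steps were checked on simulated data and used Python 3.11.15, numpy 2.4.6, pandas 2.3.3, scipy 1.17.1 and matplotlib 3.10.9.

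The members, the 57 gene lists and the naming rule were chosen with earlier results of these data known, and some list symbols were brought to the table's spelling afterwards. Among named genes (no predicted models, pseudogenes, small RNAs or mitochondrially encoded genes) the rule took the 20 highest and 12 lowest differences, 6 small RNAs, up to 5 members of each list, and a fixed set of markers. Other genes past the rule, host genes and Snora43's models were added after their values were seen.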

Additional observations from a re-analysis of the deposited data

How the results depend on the processing

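No value has a replicate error, and the depth that would set a counting error is unknown. No paired analysis was possible because the GBC and DMSO groups have 1 library each. Against 113 genes past the rule (80 higher, 33 lower), the values as deposited gave 346 (330 and 16), equal sums of listed TPM 177 (155 higher), equal sums without mitochondrially encoded genes 184 (165 and 19), size factors from genes of at least 5 TPM in both libraries 131 higher, a minimum mean of 1 TPM 187 (121 and 66), a minimum mean of 10 TPM 53 higher, at least 5 TPM in both libraries 66 (48 and 18), no predicted models, pseudogenes or small RNAs 66 (10 lower), a rule of log2(1.5) 560 (307 and 253) and a rule of 2 27 (18 and 9). The last 6 differ from the main count by construction, since they test other genes or another size. Of the 113 genes, 96 were also past the rule as deposited, 102 with equal sums and 95 without mitochondrially encoded genes. Taking differences relative to genes of like length, an alternative chosen after seeing the data, gave 142 genes, 97 of them shared. Among the 20 highest, the 12 lowest, the 6 small RNAs and the fixed set, 36 genes were past the rule. They had 430 values under the alternatives, those with another rule of size left out, of which 390 were still at 1 or more. A gene under an alternative's minimum gave no value there. None had the other sign, but these genes were picked at 1 or more and the scales moved the median by at most 0.44, so this is a description only. Of 48 lists, 33 kept 1 sign relative to all genes under every alternative tried. The heat shock, NRF2, aminoacyl-tRNA synthetase, ribosome biogenesis, atrophy and mitosis lists were among the other 15. A kept sign did not mean a kept size. Large ribosomal proteins ran from -0.35 to -0.05, small ones from -0.39 to -0.07 and basement membrane genes from 0.28 to 0.87. The smallest values of both ribosomal lists were within their same-group sizes of up to 0.10 and 0.18. Quantile normalization, which does not use 1 factor per library, gave 127 genes past the rule (99 higher, 28 lower).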
